A study of Homo sapiens with 20 samples.

Results

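Cells of MDA-MB-231, a human breast cancer line, were heated to 50 °C by a laser in the presence of nanoparticles and were compared with cells that received the same nanoparticles and no laser. The comparison uses 8 samples of 20 in the series, 4 per group, taken by their labels, and 12149 of 36601 genes had enough counts to be tested. In both groups 30000 cells were seeded per well, grown for 24 h and then given 200 µl of medium with biomimetic nanoparticles at 0.1 mg/ml for 4 h. The laser group was then irradiated for 10 min with a continuous 808 nm laser held at 50 °C, one well at a time. Each sample pooled 2 wells. The other groups, also of 4 samples each, were cells with no nanoparticles and no laser, and cells with nanoparticles and the laser at 46 °C or 54 °C. Nothing in the labels says that the 4 samples of a group came from separate cultures, so p-values measure the spread between samples, which may be technical. Laser light without nanoparticles was not analysed here, and light, heat and heated nanoparticles cannot be told apart. How long after the laser the cells were lysed is not stated in the labels.

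The libraries were made with a 3′ kit (QuantSeq, forward), in which an oligo(dT) primer starts from a poly(A) tail, so that a transcript gives reads near its 3′ end whatever its length. Total counts were 3884834 to 4382962 in the laser group and 2709082 to 4538998 with nanoparticles alone. Levels are given below in CPM, counts scaled to a common library size with edgeR's TMM factors. Of the 10 markers listed for this line, VIM, CD44, LGALS1, CAV1, EGFR, AXL, KRT8, KRT18 and S100A4 had counts in all 8 samples, and SPARC lay between 0 and 3.37 CPM. The 10 luminal breast markers summed to 158 to 253 CPM with the laser and to 126 to 166 CPM without, mostly KRT19 (76.3 to 148 CPM) and XBP1 (22.2 to 59.1 CPM), with CDH1 and PGR at 0 in all 8. Summed CPM of the 8 macrophage markers was 3.37 to 14.4 with the laser and 10.1 to 13.3 without, with TYROBP, LYZ, FCER1G, CD163 and AIF1 at 0. The 6 lymphocyte markers summed to at most 0.993 CPM, the 5 blood markers to at most 1.31 and the 6 fibroblast markers to at most 15.5 (LUM and COL3A1 at 0). Of the fibroblast markers, COL1A1 had counts in all 8 samples (0.768 to 7.10 CPM), and PDGFRB reached 8.42 CPM.

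Several transcripts that lead this comparison are, or contain, small structured RNAs. Mature small nucleolar RNAs (snoRNAs) mostly guide the modification of ribosomal RNA, and most are cut from the introns of longer host transcripts, while U3 and U8 are transcribed from their own promoters. Box H/ACA snoRNAs guide pseudouridylation, and box C/D snoRNAs guide methylation or, as with U3 and U8, the cleavage of the ribosomal RNA precursor. RMRP is the RNA of the ribonuclease MRP particle, and TERC is the RNA template of telomerase. Such RNAs, like the mRNAs of replication-dependent histones, normally end without a long poly(A) tail. In cells with heat stress, transcription, splicing and RNA 3′-end formation are all known to change.

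The sequences below are a selection of small RNAs annotated inside 4 of the 12 genes with the largest rises at a mean of at least 10 CPM, copied from GENCODE release 29 on GRCh38 and written 5′ to 3′ as DNA. They are shown because such RNAs are not normally polyadenylated, while the library method starts from poly(A). In RMRP, capitals mark every run of 3 or more A. In SNORA57 (inside CSKMT) and in SNORA61 and SNORA16A (inside SNHG12), capitals mark the ACA box before the last 3 bases. In SNORD3D, a copy of the U3 snoRNA inside AC007952.4, capitals mark the last TGATGA and the last CTGA, the letters of the C and D boxes.
RMRP, chr9:35657751-35658018, minus strand: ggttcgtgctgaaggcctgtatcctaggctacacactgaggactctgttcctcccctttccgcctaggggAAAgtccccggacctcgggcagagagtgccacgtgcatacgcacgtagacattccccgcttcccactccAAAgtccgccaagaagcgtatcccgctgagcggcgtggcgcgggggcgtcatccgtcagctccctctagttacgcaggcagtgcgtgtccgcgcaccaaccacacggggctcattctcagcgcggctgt
SNORA57, chr11:62665422-62665570, plus strand: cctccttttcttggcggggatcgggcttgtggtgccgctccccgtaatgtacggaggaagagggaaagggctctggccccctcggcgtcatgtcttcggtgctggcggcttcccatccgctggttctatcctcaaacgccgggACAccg
SNORA61, chr1:28579764-28579893, minus strand: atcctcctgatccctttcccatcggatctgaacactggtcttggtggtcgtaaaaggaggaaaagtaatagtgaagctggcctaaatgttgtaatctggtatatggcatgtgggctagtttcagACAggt
SNORA16A, chr1:28580920-28581056, minus strand: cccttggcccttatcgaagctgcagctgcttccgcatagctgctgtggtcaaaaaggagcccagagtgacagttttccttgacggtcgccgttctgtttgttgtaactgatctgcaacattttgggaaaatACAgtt
SNORD3D, chr17:19112419-19112636, minus strand: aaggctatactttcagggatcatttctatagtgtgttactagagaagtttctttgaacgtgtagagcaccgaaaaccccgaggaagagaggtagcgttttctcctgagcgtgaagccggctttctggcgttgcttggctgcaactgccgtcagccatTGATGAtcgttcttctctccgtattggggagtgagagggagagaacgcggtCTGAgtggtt
The longest run of A was 3 bases in RMRP and SNORA57, 4 in SNORA61 and SNORD3D and 5 in SNORA16A. Of 1004 snoRNA and small Cajal body RNA (scaRNA) transcripts in the same release, 7.4% held the letters AAAAAA on the RNA strand, 30.6% had ACA before the last 3 bases and 33.2% held both TGATGA and CTGA. These matches describe the letters only.

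With the laser at 50 °C, 150 genes rose (1.23% of those tested) and 180 fell (1.48%) by edgeR's quasi-likelihood test at an adjusted p under 0.05. These shares are the background for the list counts below, and few or no calls in a short list lie near them. A change of at least 2-fold was found for 53 of the higher and 35 of the lower genes, and the median log2 fold change of all tested genes was 0.02. The 4 values of one group lay wholly above or below those of the other for 8.33% of all tested genes. Of the called genes, 149 of 150 and 180 of 180 had the same sign in both replicate pairs, 1 with 2 and 3 with 4. They were called from these same samples, which favours such agreement, so it is no separate support. Nanoparticles alone against untreated cells gave 0 calls by edgeR, the only tool run for it, where the smallest adjusted p was 0.620 and 637 genes had an unadjusted p under 0.05. Scaling by library totals in place of TMM moved the median of all genes to -0.10 and gave 93 genes higher and 466 lower, so that 16.6% of calls were higher against 45.5%. Leaving out replicate 1 of the laser group gave 79 genes higher and 105 lower, leaving out its replicate 2 gave 92 and 106, and leaving out replicate 2 of the nanoparticle group gave 96 and 101. Without each of the 8 libraries in turn, 59 of the 150 and 55 of the 180 kept their call in every case. Fewer cells with a transcript and less of it per cell cannot be told apart in these bulk libraries.

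**Figure D1:**
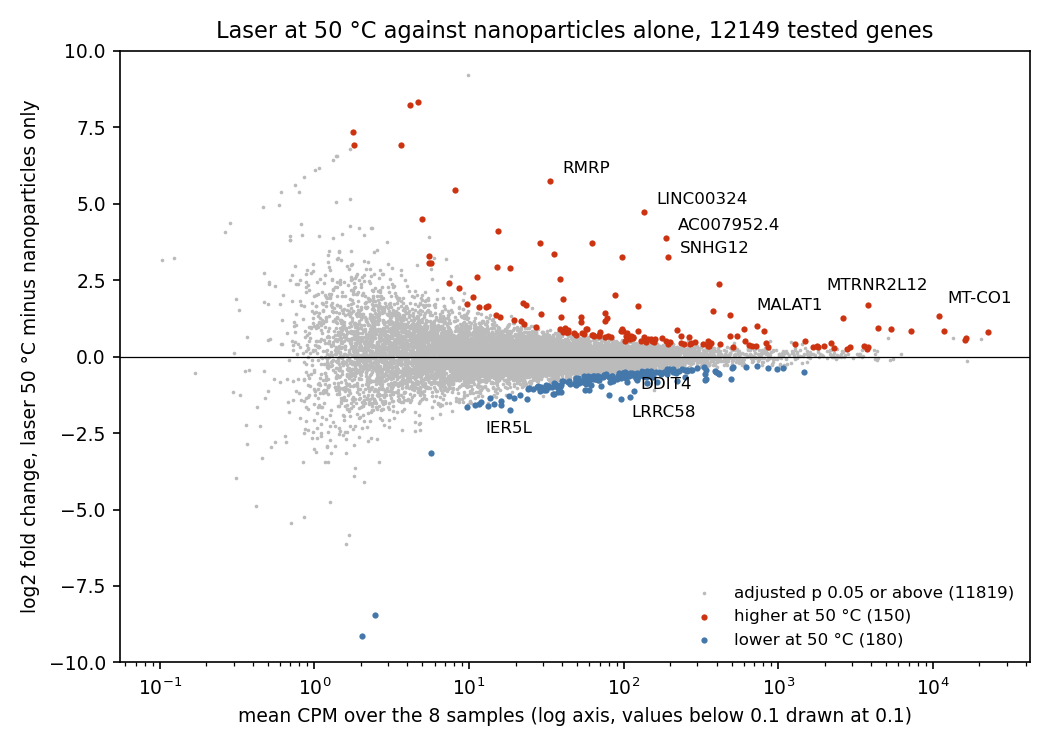
Log2 fold change (laser at 50 °C minus nanoparticles alone, vertical axis) against mean CPM over the 8 samples (log axis) for the 12149 tested genes, each a point. The 150 higher genes (red) reach larger changes than the 180 lower genes (blue) at mean levels above 10 CPM, where RMRP has the largest called change, and a few called genes at lower levels lie beyond it.

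RMRP (ENSG00000269900) was nearly undetected with nanoparticles alone and was measured in every laser sample. It stood at 60.5, 54.1, 87.3 and 58.4 CPM in laser replicates 1 to 4, against 0, 0, 3.93 and 1.72 CPM (0, 0, 11 and 7 reads) with nanoparticles alone. The groups did not overlap, and the log2 change was 5.74 ± 0.88 (SE, n = 4 per group, edgeR adjusted p = 0.00182), with a 95% interval of 3.86 to 7.63. With so few control reads the size of this fold is poorly fixed. RMRP passed the count filter only through the laser groups, so its p-value and separation are a description and no separate support. LINC00324 (ENSG00000178977, chr17:8220642-8224043), a long intergenic noncoding RNA, rose from 8.45, 8.75, 13.6 and 9.58 CPM to 336, 240, 243 and 219 CPM. All 4 laser samples were above all 4 controls, with a log2 change of 4.72 ± 0.37 (SE, edgeR adjusted p = 9.99e-07). Within replicates 1 and 2 it was 5.06 and within replicates 3 and 4 it was 4.34.

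AC007952.4 (ENSG00000262202, chr17:19112000-19112636) is a noncoding gene whose 5′ part is the U3 copy SNORD3D printed above. U3 starts the processing of the ribosomal RNA precursor. The gene was at 378, 361, 400 and 265 CPM with the laser and at 24.3, 22.7, 27.9 and 20.9 CPM without it. The log2 change was 3.88 ± 0.21 (SE, edgeR adjusted p = 2.94e-16). U3 has near-identical gene copies, so the assignment of its reads to one copy is uncertain. ZNF277, a zinc finger gene with the 7SK-related sequence RN7SKP187 on an annotated exon (chr7:112288623-112288952), was at 136, 101, 123 and 108 CPM against 11.8, 7.87, 5.00 and 10.1 CPM. Its log2 change of 3.73 ± 0.27 (SE) carried an adjusted p of 8.75e-19 by edgeR, the smallest of all tested genes.

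SNHG12 (ENSG00000197989) hosts SNORA61, SNORA16A, SNORA44 and SNORD99. It was at 259, 387, 400 and 352 CPM with the laser and at 32.8, 37.6, 43.3 and 32.9 CPM without it, and the log2 change was 3.26 ± 0.33 (SE, edgeR adjusted p = 2.86e-05). CSKMT, a citrate synthase lysine methyltransferase gene with SNORA57 on an exon, rose from 18.2, 18.2, 21.4 and 15.7 CPM to 181, 157, 202 and 164 CPM. The log2 change was 3.26 ± 0.24 (SE, edgeR adjusted p = 9.54e-18). For both genes every laser sample was above every control. SNORA57 does not overlap an annotated untranslated region.

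Other genes with a small RNA inside them were looked at after their values were seen. TMEM107, a transition zone protein of cilia whose 3′ end holds the U8 snoRNA SNORD118, rose 2.03 ± 0.21 on the log2 scale (SE, edgeR adjusted p = 8.55e-11). WDR74, a ribosome biogenesis factor that spans the U2 small nuclear RNA copy RNU2-2P, rose by 1.67 ± 0.20 (adjusted p = 7.79e-08). SNHG10, which holds SCARNA13, rose by 2.53 ± 0.36 (adjusted p = 1.36e-06), and AL627171.2, which holds the signal recognition particle RNA copy RN7SL2, rose by 1.25 ± 0.21 (adjusted p = 0.000313). In these 4 genes each laser sample was above each control, and each kept its call without any one of the 8 libraries.

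**Figure D2:**
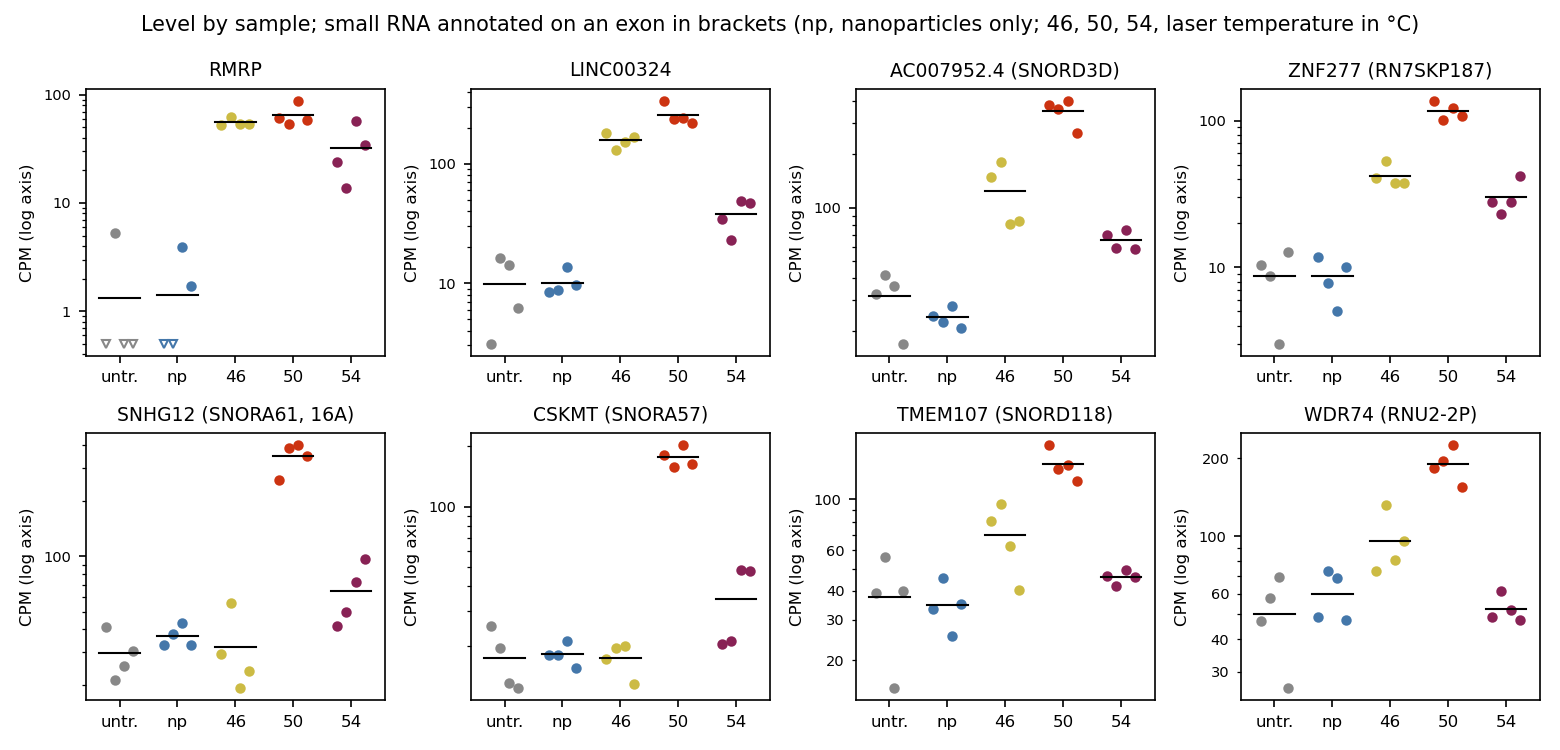
CPM (log axis) of 8 genes in the 20 samples, by group; each point is a sample, the black line is the group mean, and open triangles are samples below 0.5 CPM. The 4 samples at 50 °C are above the nanoparticle samples in all 8 panels, and SNHG12 and CSKMT have means of 32.1 and 17.5 CPM at 46 °C, near the nanoparticle samples.

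Of 340 tested genes with a small RNA overlapping an exon on the same strand, 26 rose and 4 fell, which is 7.65% and 1.18% beside 1.23% and 1.48% of all genes. Genes with a small RNA inside but on no exon numbered 1256, of which 16 rose and 25 fell. Box C/D snoRNAs lay inside 76 tested genes, with 12 higher and 2 lower, and box H/ACA snoRNAs or scaRNAs inside 106, with 11 higher and 2 lower. Small nuclear RNA copies lay inside 330 genes, with 3 higher and 10 lower, and RNAs annotated as miscellaneous inside 437, with 7 higher and 10 lower. MicroRNAs, counted here as small RNAs, lay inside 730, with 16 higher and 7 lower. The 26 include PABPC1, LAMA5, TLN1 and ZC3H12A, which hold microRNAs only, and RMRP and TERC, which are small structured RNAs themselves. MALAT1 and NEAT1, long noncoding RNAs that hold RNAs annotated as miscellaneous, are also among the 26. These groups overlap, were formed after earlier results of these data were known, and are counts with no test. Under scaling by library totals the 340 genes divided into 17 higher and 16 lower, and the 245 genes with a snoRNA or scaRNA inside, 19 higher and 4 lower with TMM, into 11 higher and 15 lower.

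In the list of snoRNA host genes, 11 of 51 tested members rose and 2 fell, and the median log2 change was 0.17 against 0.02 for all genes. TAF1D, a subunit of the RNA polymerase I factor SL1 with 8 annotated snoRNAs inside the gene, was at 515, 629, 847 and 799 CPM with the laser and at 222, 229, 349 and 295 CPM without it. The log2 change was 1.35 ± 0.11 (SE, edgeR adjusted p = 9.54e-18). EIF4A2, a translation initiation helicase gene with SNORA4, SNORA63, SNORA81 and SNORD2 inside it, rose by 1.50 ± 0.12 on the log2 scale, from 178 to 216 CPM up to 450 to 685 CPM. GAS5, SNHG15, SNHG29, EIF4A1, GNL3 and PRKDC were the other members that rose beside SNHG10, SNHG12 and CSKMT. The list differs from the annotation counted above, which places no snoRNA or scaRNA inside GAS5 or PRKDC. NCL, the gene of nucleolin, fell by 0.37 ± 0.08 (edgeR adjusted p = 0.00363). EIF4G2 was the other member that fell. With scaling by library totals 7 members were higher and 5 lower, with a median of 0.05 against -0.10 for all genes. The number of rises was 7 without laser replicate 1, laser replicate 2 or nanoparticle replicate 1. GNL3 lost its call in 7 of 8 such fits, all but the one without laser replicate 3, with adjusted p up to 0.174.

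Among replication-dependent histone genes, whose mRNAs end in a stem-loop, 6 of 29 tested members rose and 0 fell (0 at an unadjusted p under 0.05, 0 by DESeq2 and 0 by limma-voom). Summed over all 71 annotated members, their level was 1506, 1424, 1739 and 1285 CPM with the laser and 658, 688, 919 and 498 CPM with nanoparticles alone. Every laser sample was above every control, and untreated cells had 543 to 1249 CPM. HIST1H2AG, a core histone H2A gene, was at 24.5, 25.3, 26.7 and 40.4 CPM against 0.512, 1.53, 5.00 and 0.246 CPM, a log2 change of 4.11 ± 0.62 (SE, edgeR adjusted p = 2.20e-06). HIST1H1E, a linker histone gene, was at 66.5, 62.8, 61.4 and 63.1 CPM against 25.9, 13.1, 22.5 and 8.84 CPM, a change of 1.88 ± 0.27 (adjusted p = 4.95e-07). HIST1H4J rose by 2.59 ± 0.56 (adjusted p = 0.00243), a call that ended without laser replicate 3 (adjusted p = 0.0655). HIST1H4C, a histone H4 gene, was the most abundant of those named, with 930, 953, 1172 and 819 CPM against 447, 452, 668 and 390 CPM. Its log2 change was 0.99 ± 0.24 (edgeR adjusted p = 0.0385), and the call was kept only without laser replicate 4 or nanoparticle replicate 3 (adjusted p up to 0.116 in the other 6). The number of rises fell from 6 to 3 without laser replicate 1 or nanoparticle replicate 1 and to 2 without laser replicate 3. Histone genes that passed the count filter can have passed through the laser samples, so their number is a description.

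TERC was at 57.1, 69.7, 53.1 and 42.9 CPM with the laser and at 16.1, 17.9, 35.4 and 21.1 CPM without it. The groups did not overlap, and the log2 change was 1.29 ± 0.34 (SE, edgeR adjusted p = 0.0253). This call held only without laser replicate 4 or nanoparticle replicate 3, with adjusted p up to 0.136 in the other 6 fits.

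MALAT1 and NEAT1, long RNAs of nuclear speckles and paraspeckles, both rose. MALAT1 was at 3459, 3102, 4400 and 3939 CPM with the laser against 1498, 1166, 1817 and 1766 CPM, a log2 change of 1.26 ± 0.14 (SE, edgeR adjusted p = 6.63e-05). NEAT1 was at 96.3, 168, 99.7 and 81.4 CPM against 48.9, 41.8, 38.6 and 34.9 CPM, a change of 1.43 ± 0.18 (adjusted p = 6.64e-08). NORAD, a cytoplasmic RNA that binds Pumilio proteins, fell from 160 to 212 CPM down to 89.9 to 108 CPM, a change of -0.87 ± 0.13 (adjusted p = 1.36e-06). These were the 3 called among 11 tested members of a list of long noncoding RNAs, and all 3 held without any one library.

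mRNAs encoded in the mitochondrial genome took a larger share of the counts with the laser at 50 °C. They made up 16.3%, 14.6%, 19.1% and 17.9% of counts in laser replicates 1 to 4 and 12.5%, 12.2%, 11.1% and 12.1% with nanoparticles alone. The groups did not overlap, and the SD over 4 samples was 1.95 with the laser and 0.630 without it, in percentage points. Of the 13 genes, 8 rose and 0 fell (0 at an unadjusted p under 0.05, 0 by DESeq2 and 0 by limma-voom). MT-CO1, a subunit of cytochrome c oxidase, was at 16669, 11872, 18163 and 15779 CPM against 7283, 7070, 4990 and 5756 CPM. Its log2 change was 1.34 ± 0.23 (SE, edgeR adjusted p = 0.00391), 0.99 within replicates 1 and 2 and 1.66 within replicates 3 and 4. MT-ND2, a complex I subunit, rose by 0.79 ± 0.13 (adjusted p = 0.00293) and MT-ATP8, an ATP synthase subunit, by 0.85 ± 0.15 (adjusted p = 0.00645). The calls for these 3 held without any one library, but the count of 8 fell to 5 without laser replicate 1, 4 without laser replicate 3 or nanoparticle replicate 4, and 3 without laser replicate 4 or nanoparticle replicate 1, 2 or 3. Within replicates 1 and 2 alone the list's median log2 change was 0.40 and 1 member was called, as lower, and within replicates 3 and 4 alone the median was 0.91 and 4 members were called higher.

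The nuclear genes of the MTRNR2L family, near-identical copies of mitochondrial 16S ribosomal RNA, moved with them. Summed over 11 members they were at 12073, 9315, 10699 and 10380 CPM with the laser and at 8267, 7093, 6009 and 3932 CPM without it. All laser samples were higher, and MTRNR2L12, chosen after its values were seen, rose by 1.69 ± 0.16 on the log2 scale (SE, edgeR adjusted p = 7.91e-06). MTRNR2L1 rose by 2.37 ± 0.22 (adjusted p = 6.79e-06) and MTRNR2L10 by 2.94 ± 0.56 (adjusted p = 0.000313). Reads of these copies cannot be told from mitochondrial ribosomal RNA or from each other with certainty. Of 74 nuclear oxidative phosphorylation genes 0 passed the edgeR test in either direction (6 higher and 3 lower at an unadjusted p under 0.05, 2 higher by DESeq2, 1 by limma-voom, 3 lower under library totals), with a median of -0.01.

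EIF3C, which encodes a subunit of initiation factor 3, was among the 12 largest rises at 3.70 ± 0.59 (SE, edgeR adjusted p = 0.00232), but it has the near-identical copy EIF3CL. The 2 genes summed to 401, 389, 490 and 431 CPM with the laser and to 307, 311, 320 and 303 CPM without it. The sum was higher in every laser sample and moved far less than EIF3C alone, with means of 428 ± 45.3 and 310 ± 7.19 CPM (SD, n = 4). AC010624.5 rose by 3.35 ± 0.56 (adjusted p = 0.00354), with 32.3 to 117 CPM against 2.14 to 10.1 CPM. AC073140.1 rose by 2.90 ± 0.73 (adjusted p = 0.0465), a call that ended without any one of the 8 libraries (adjusted p up to 0.136). Neither AC010624.5 nor AC073140.1 has a position or a gene type in the annotation used.

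Of 84 tested ribosomal protein genes 8 rose, 0 fell and 76 were not called by edgeR, with a median log2 change of 0.09. Their mRNAs took 15.1% ± 0.677 of counts with the laser and 15.3% ± 0.212 without it (SD, n = 4). At an unadjusted p under 0.05 there were 26 higher and 1 lower, and DESeq2 called 14 higher and limma-voom 13, with 0 lower in both. RPL12, of the large subunit, was at 1717, 1656, 1847 and 1765 CPM against 1192, 991, 1336 and 1424 CPM, a change of 0.51 ± 0.08 (SE, edgeR adjusted p = 5.60e-06). RPSA, of the small subunit, rose by 0.40 ± 0.09 (adjusted p = 0.00145). RPS2, RPL3, RPL23A, RPL6 and RPLP0 were also among those that rose. Scaling by library totals moved the list's median to -0.03, beside -0.10 for all genes, with 3 members higher and 2 lower. The count was 4 without laser replicate 1, nanoparticle replicate 1 or nanoparticle replicate 2, and 5 without laser replicate 2.

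The lower genes had smaller changes. LRRC58, a leucine-rich repeat protein gene, was at 42.6, 59.8, 63.9 and 47.1 CPM with the laser and at 129, 132, 121 and 171 CPM with nanoparticles alone. All laser samples were lower, and the log2 change was -1.37 ± 0.15 (SE, edgeR adjusted p = 1.49e-10). DDIT4, an inhibitor of mTORC1 that responds to stress, was at 51.3, 114, 44.8 and 44.9 CPM against 177, 166, 138 and 139 CPM, a change of -1.33 ± 0.17 (adjusted p = 2.25e-08). IER5L, an immediate-early-type gene, was at 8.15, 9.68, 6.80 and 8.98 CPM against 36.9, 31.9, 27.2 and 18.4 CPM, a change of -1.74 ± 0.35 (adjusted p = 0.000596). ZMAT3, an RNA-binding p53 target, fell by 1.40 ± 0.30 (adjusted p = 0.00177). These 4 kept their calls without any one library and are among the 12 largest falls at a mean of at least 10 CPM.

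The other 8 of those 12 each lost their call when at least 1 library was left out, and each of the 8 libraries ended at least 1 of these calls. They were ZSCAN25 (log2 change -1.62, adjusted p up to 0.140 in such fits), AC125257.1 (-1.59, up to 0.164), the BMP receptor gene BMPR1A (-1.57, up to 0.150) and ZNF431 (-1.54, up to 0.0677). The rest were the kinase gene ICK (-1.50, up to 0.177), the transcription factor gene GATA2 (-1.46, up to 0.0810), METTL15 (-1.35, up to 0.151) and AP1S3 (-1.35, up to 0.0557). All are edgeR adjusted p.

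Genes for transcription factors and a ligand at higher levels also fell, chosen here after their values were seen. FOXP1, a forkhead repressor, was at 86.0, 78.9, 70.0 and 55.6 CPM against 145, 157, 171 and 166 CPM, a log2 change of -1.13 ± 0.14 (SE, edgeR adjusted p = 9.87e-09). FOXN3, another forkhead factor, was at 39.5 to 55.1 CPM against 98.3 to 132 CPM (-1.25 ± 0.17, adjusted p = 1.27e-07). NR3C1, the glucocorticoid receptor gene, fell by 0.66 ± 0.13 (adjusted p = 0.000549), with 81.3 to 134 CPM against 124 to 196 CPM, so that its groups overlapped. The ligand gene BMP4 was at 134, 132, 87.6 and 114 CPM against 254, 247, 176 and 167 CPM (-0.84 ± 0.13, adjusted p = 4.05e-06). Within the fixed list of BMP and TGF-beta targets 1 of 19 fell and 1 rose, with a median of 0.00, beside 1.48% and 1.23% of all tested genes. ID1, the one that fell, changed by -0.55 ± 0.15 (adjusted p = 0.0284). NOG, a secreted BMP antagonist, changed by 0.67 ± 0.19 (adjusted p = 0.0346). The calls of ID1 and NOG held in 2 of 8 leave-outs each, ending without laser replicate 1, 3 or 4 or nanoparticle replicate 2, 3 or 4 (adjusted p up to 0.111 and 0.202).

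Of 38 tested genes for SR proteins, hnRNPs and CLK kinases, which bind nascent RNA or phosphorylate its binders, 9 fell, 1 rose and 28 were not called, with a median log2 change of -0.26. HNRNPDL was at 377, 395, 374 and 347 CPM with the laser and at 678, 733, 568 and 515 CPM without it, a change of -0.73 ± 0.09 (SE, edgeR adjusted p = 1.51e-08). TARDBP, which encodes TDP-43, was at 62.1, 61.1, 38.0 and 35.1 CPM against 118, 111, 83.3 and 66.6 CPM (-0.95 ± 0.17, adjusted p = 5.99e-05). Its highest laser sample was below its lowest control. HNRNPD fell by 0.47 ± 0.10 (adjusted p = 0.000960), with 294 to 341 CPM against 421 to 478 CPM. CLK1, HNRNPA2B1, HNRNPA3, HNRNPH2, HNRNPH3 and HNRNPU were the others that fell. HNRNPU lost its call without laser replicate 1 or 4 or nanoparticle replicate 2, 3 or 4 (adjusted p up to 0.205). HNRNPUL1 changed by 0.36 ± 0.10 (adjusted p = 0.0382), a call that held only without laser replicate 4 or nanoparticle replicate 4 (adjusted p up to 0.194 otherwise). The count of 9 fell to 5 without nanoparticle replicate 2. With scaling by library totals 16 were lower and 0 higher, beside 466 lower and 93 higher of all 12149 tested genes.

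In the list of NF-kB factors and cytokines, 5 of 28 tested genes rose and 1 fell, with a median of 0.43. NFKBIZ, which encodes the nuclear NF-kB cofactor IkB-zeta, was at 45.2, 40.7, 31.7 and 18.8 CPM with the laser and at 19.7, 8.75, 10.0 and 2.95 CPM without it. The groups overlapped by 1 sample, and the log2 change was 1.75 ± 0.38 (SE, edgeR adjusted p = 0.00253). CXCL8, a neutrophil chemokine, was at 178, 193, 86.1 and 79.7 CPM against 102, 97.3, 50.4 and 56.8 CPM. Replicates 3 and 4 were lower than 1 and 2 in both groups, and the change was 0.77 ± 0.15 (adjusted p = 0.000273), 0.89 within replicates 1 and 2 and 0.63 within 3 and 4. IL11, a cytokine of the IL-6 family, fell from 402, 369, 123 and 211 CPM to 237, 263, 81.3 and 89.5 CPM (-0.79 ± 0.12, adjusted p = 4.28e-06). These 3 held without any one library.

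The interleukin calls were less stable. IL1A changed by 1.18 ± 0.32 (SE, edgeR adjusted p = 0.0241), and its call ended without laser replicate 2 or 3 or nanoparticle replicate 1, 3 or 4 (adjusted p up to 0.155). IL1B changed by 0.96 ± 0.28 (adjusted p = 0.0399), with a call kept only without laser replicate 4 (adjusted p up to 0.150 otherwise). IL6 changed by 0.64 ± 0.19 (adjusted p = 0.0466), with a call kept only without laser replicate 4 or nanoparticle replicate 3 (adjusted p up to 0.326 otherwise). The count of 5 fell to 3 without laser replicate 1 or 3 or nanoparticle replicate 2, and to 2 without laser replicate 2 or nanoparticle replicate 1 or 4. With scaling by library totals 3 were higher and 2 lower. The list's median was 0.62 within replicates 1 and 2 and 0.31 within replicates 3 and 4. Outside the list, and chosen after its values were seen, ZC3H12A, an RNase that degrades cytokine mRNAs, was at 86.8, 76.2, 58.6 and 81.4 CPM against 33.5, 35.9, 32.5 and 22.1 CPM (1.29 ± 0.22, adjusted p = 2.85e-05). IRF1, an interferon-responsive transcription factor, rose by 0.91 ± 0.21 (adjusted p = 0.00426) with 68.2 to 94.4 CPM against at most 46.7 CPM. NFKBIA, the inhibitor whose gene is a direct NF-kB target, stood at 132 to 154 CPM against 117 to 143 CPM (0.12 ± 0.15, adjusted p = 0.800).

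The kB consensus, the DNA motif bound by NF-kB, was looked for on both strands of the 250 bases before each annotated start in the RefSeq promoter table (GRCh38). It was found in 5.21% of 35116 promoters. It was present in the IL6 window and in both NFKBIZ windows, and in none of the windows of CXCL8, IL1A, IL1B and IL11. Sites that differ from this pattern by any base were not counted, so a window without a match may still hold a site. NFKBIZ was the called gene of the list with the largest rise, and its window with the match at position -223 from the start is shown with the match in capitals.
NFKBIZ promoter, chr3:101827740-101827989, plus strand: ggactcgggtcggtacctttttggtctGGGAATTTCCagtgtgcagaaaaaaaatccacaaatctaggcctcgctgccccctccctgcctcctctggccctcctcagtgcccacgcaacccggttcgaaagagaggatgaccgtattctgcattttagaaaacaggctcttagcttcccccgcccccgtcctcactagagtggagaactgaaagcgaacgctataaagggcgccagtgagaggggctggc
A match is a stretch of letters and is no measure of binding.

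In the list of targets of YAP and of serum response factor, which respond to the cytoskeleton, 5 of 26 tested genes rose and 1 fell, with a median of 0.17. The 1 that fell was TEAD1, a partner of YAP in the list rather than a target. CCN1 is also counted in the immediate-early list below. CCN1, a secreted matrix protein gene, was at 1007, 841, 1148 and 1153 CPM with the laser against 549, 540, 640 and 561 CPM, a log2 change of 0.85 ± 0.09 (SE, edgeR adjusted p = 3.06e-11). ANKRD1, a muscle ankyrin repeat gene induced by YAP, was at 1079, 874, 586 and 623 CPM against 483, 489, 365 and 331 CPM (0.90 ± 0.10, adjusted p = 5.47e-10). FLNA, which encodes the actin crosslinker filamin A, rose by 0.46 ± 0.10 (adjusted p = 0.00282). TEAD1, the DNA-binding partner of YAP, fell from 122 to 176 CPM down to 76.6 to 101 CPM (-0.69 ± 0.14, adjusted p = 0.00144). AMOTL2 (0.59 ± 0.15, adjusted p = 0.0170) lost its call without laser replicate 1 or 2 or nanoparticle replicate 2 or 3 (adjusted p up to 0.0929), and TLN1 (0.48 ± 0.14, adjusted p = 0.0398) without any one of the 8 libraries (up to 0.176). The count of 5 fell to 3 without laser replicate 1 or 2 or nanoparticle replicate 2 or 3, and with scaling by library totals.

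Other stress genes moved singly. GDF15, a stress-induced cytokine chosen after its values were seen, was at 15.8, 27.1, 59.1 and 40.1 CPM against 6.40 to 16.4 CPM (log2 change 1.68 ± 0.33, SE, edgeR adjusted p = 0.000546). HMOX1, heme oxygenase 1, was at 14.7, 6.21, 14.1 and 14.3 CPM against 1.79, 0.656, 5.00 and 2.70 CPM (2.42 ± 0.63, adjusted p = 0.0151), and its call ended without laser replicate 1 or nanoparticle replicate 2 (adjusted p up to 0.105). It was the 1 called of 21 NRF2 and iron genes, and 0 fell by edgeR (2 lower at an unadjusted p under 0.05, 1 by DESeq2, 0 by limma-voom). XBP1, of the unfolded protein response, was the 1 called by edgeR of 23 endoplasmic reticulum genes, where DESeq2 and limma-voom each called 1 higher and 1 lower (0.82 ± 0.22, adjusted p = 0.0177), ending without laser replicate 2 or 4 or nanoparticle replicate 1, 2 or 3 (up to 0.107). Of 22 ATF4 targets DDIT4 alone was called. With 1.23% higher and 1.48% lower over all tested genes, a single call says little about a list of this size. Of 41 immediate-early genes, CCN1, FOSL1 and GADD45A rose and IER5L and ZFP36L2 fell, with a median of 0.04. FOSL1, an AP-1 subunit gene, was at 294, 224, 302 and 322 CPM against 150, 111, 221 and 254 CPM (0.69 ± 0.12, adjusted p = 5.92e-05), with overlapping groups. GADD45A changed by 0.91 ± 0.20 (adjusted p = 0.00276), a call that ended without laser replicate 1 (adjusted p = 0.0596).

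No heat shock chaperone gene was called at 50 °C. Of 33 cytosolic chaperones and cochaperones 0 passed the edgeR test in either direction, with 3 higher and 4 lower at an unadjusted p under 0.05, 1 higher by DESeq2 and 0 by limma-voom, and the median was -0.03. Of all tested genes 1.23% rose and 1.48% fell, so no calls in a list of this size is near that share. With scaling by library totals 3 were lower, with a median of -0.15 against -0.10 for all genes. The near-identical inducible HSP70 genes HSPA1A and HSPA1B summed to 41.0, 33.5, 69.7 and 53.6 CPM with the laser at 50 °C and to 69.1, 58.8, 66.1 and 58.0 CPM without it. DNAJB1, an HSP40 cochaperone, was at 107 to 139 CPM against 120 to 142 CPM (log2 change -0.06 ± 0.12, edgeR adjusted p = 0.895). HSPH1 was at 181 to 239 CPM against 178 to 199 CPM (0.07 ± 0.13, adjusted p = 0.891). HSPA6, a strictly inducible HSP70, was at 0, 0, 4.28 and 3.09 CPM against 0.256, 2.41, 0 and 0.737 CPM.

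The title of the series names c-MYC and immunotherapy. MYC was at 37.3, 22.3, 24.7 and 16.8 CPM with the laser at 50 °C and at 26.1, 24.0 and 22.4 CPM in replicates 1, 3 and 4 with nanoparticles alone, with replicate 2 below these. The samples overlapped, and the log2 difference was 0.22 ± 0.31 (SE), with a 95% interval of -0.40 to 0.84 and an edgeR adjusted p of 0.832. Its partner MAX was at 66.3 to 98.2 CPM against 74.8 to 118 CPM (-0.19 ± 0.15, adjusted p = 0.655). Of 10 genes of the MYC and MAX network 0 passed the edgeR test (2 higher and 1 lower at an unadjusted p under 0.05, 2 higher by DESeq2, 0 by limma-voom). Among 34 growth genes that respond to MYC, NCL and NOP16 fell and GNL3 rose. NOP16 (-0.53 ± 0.14, adjusted p = 0.0194) lost its call without laser replicate 1 or nanoparticle replicate 1 or 2 (adjusted p up to 0.106). CD274, the gene of the checkpoint ligand PD-L1, was at 15.8, 13.4, 33.5 and 24.1 CPM against 14.6, 24.5, 25.4 and 24.3 CPM, with a difference of -0.07 ± 0.32 (interval -0.71 to 0.56, adjusted p = 0.962). CD47, a ligand that inhibits phagocytosis, was at 40.5 to 59.2 CPM against 47.2 to 73.2 CPM (-0.25 ± 0.20, interval -0.65 to 0.14, adjusted p = 0.648). Of 13 checkpoint ligand genes 0 were called by edgeR, DESeq2 or limma-voom (2 at an unadjusted p under 0.05). HLA-C, of class I antigen presentation, changed by 0.42 ± 0.12 (edgeR adjusted p = 0.0349), the 1 call among 18 such genes, and it ended without laser replicate 1 or 2 or nanoparticle replicate 1, 2 or 4 (up to 0.232). With 1.23% higher and 1.48% lower over all tested genes, few or no calls in these short lists are near the background.

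**Figure D3:**
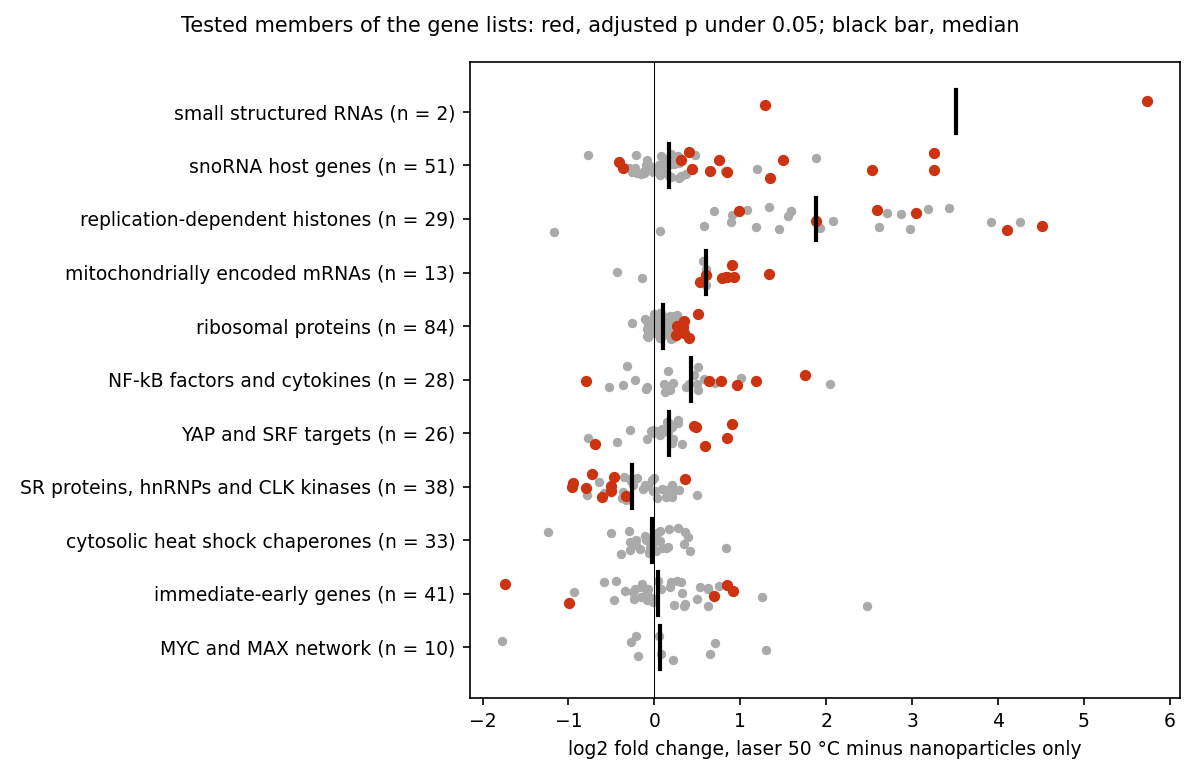
Log2 fold change (laser at 50 °C minus nanoparticles alone) of each tested member of 11 gene lists; red points passed an adjusted p under 0.05, grey points did not, and black bars are medians. Histone and mitochondrial members lie mostly above 0, the splicing list has its median at -0.26, and the heat shock list has no red point.

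Against the laser at 46 °C, 169 genes were higher at 50 °C (1.39%) and 172 were lower (1.42%) by edgeR, and this comparison shares the laser samples at 50 °C with the one above. The heat shock genes separated these 2 temperatures. HSPA1A and HSPA1B summed to 2206, 2733, 2339 and 3288 CPM at 46 °C, above every sample at 50 °C, and 11 of 33 chaperone genes were lower at 50 °C by edgeR. HSPA1A differed by -6.40 ± 0.30 on the log2 scale (edgeR adjusted p = 2.67e-09). EGR1, an immediate-early transcription factor, had a mean of 979 CPM at 46 °C against 25.8, 18.4, 13.3 and 19.1 CPM at 50 °C (-5.70 ± 0.39, adjusted p = 2.87e-07). Of 41 immediate-early genes 13 were lower at 50 °C and 1 was higher. Mitochondrial mRNAs were higher at 50 °C than at 46 °C for 12 of 13, with 4.50% to 5.60% of counts at 46 °C, below all other groups. MT-ATP8 had the largest of these differences that the naming rule took (2.79 ± 0.16, adjusted p = 4.63e-08). SNHG12 (3.42 ± 0.34, adjusted p = 1.66e-05) and CSKMT (3.32 ± 0.25, adjusted p = 5.26e-18) were higher at 50 °C than at 46 °C. Both were picked above for high values in these same samples at 50 °C, which favours such differences, so they are no separate support. The difference for RMRP was 0.19 ± 0.61 (adjusted p = 0.954), with 55.5 CPM at 46 °C as the mean of 4. Without laser replicate 1 at 50 °C the 169 became 105, and without its replicate 3 they became 110. With scaling by library totals 68 were higher and 725 lower.

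Against 50 °C, the laser at 54 °C gave 33 genes higher (0.272%) and 36 lower (0.296%). This comparison shares the samples at 50 °C with those above. Genes picked above for high or low values in these samples are favoured to move back at 54 °C, so their differences are no separate support. In the snoRNA host list 8 of 51 genes were lower at 54 °C and 1 was higher. CSKMT differed by -2.38 ± 0.23 (edgeR adjusted p = 2.16e-12), SNHG12 by -2.44 ± 0.32 (adjusted p = 0.000800), LINC00324 by -2.80 ± 0.32 (adjusted p = 0.000183), HIST1H2AG by -3.51 ± 0.58 (adjusted p = 4.25e-05) and MTRNR2L10 by -3.16 ± 0.56 (adjusted p = 0.000160). AC007381.2 had the largest called difference of those named, -3.58 ± 0.35 (adjusted p = 7.39e-06), from 59.5 to 66.2 CPM down to a mean of 5.59 CPM. RMRP differed by -1.09 ± 0.62 (adjusted p = 0.752). In the splicing list 9 of 38 genes were higher at 54 °C than at 50 °C, among them TARDBP at 0.88 ± 0.17 (adjusted p = 0.000655). HEXIM1, the inhibitor of the elongation factor P-TEFb, was higher at 54 °C by 0.86 ± 0.21 (adjusted p = 0.0277). These counts rest on few libraries. The 33 higher genes became 11, 21, 15 and 17 without replicates 1 to 4 at 50 °C, and 13, 9 and 17 without replicates 1 to 3 at 54 °C. The 36 lower genes became 21 without replicate 1 and 23 without replicate 4 at 50 °C. DESeq2 called 74 and 79. Libraries at 54 °C were the deepest, with 6154155 to 7710977 counts.

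**Figure D4:**
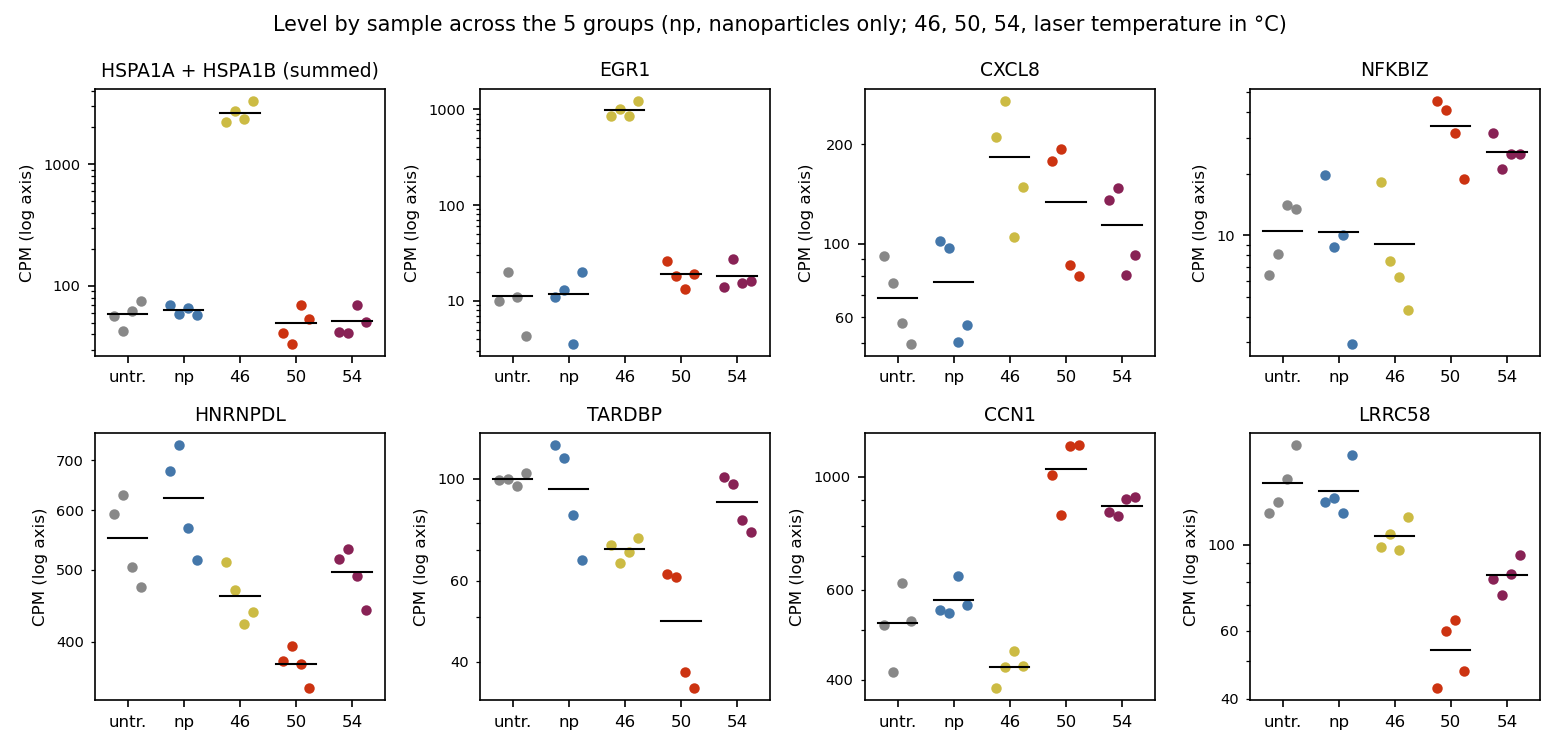
CPM (log axis) of 7 genes and of the sum of HSPA1A and HSPA1B in the 20 samples, by group; each point is a sample and the black line is the group mean. HSP70 and EGR1 are high at 46 °C alone, HNRNPDL and LRRC58 are lowest in the samples at 50 °C, and CXCL8 divides by replicate pair within each group.

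The 4 samples of a group fall into replicates 1 and 2 and replicates 3 and 4, a division that was a term of the fit. Within replicates 1 and 2 alone 73 genes were higher and 91 lower, and within replicates 3 and 4 alone 50 were higher and 38 lower. The difference between the 2 responses was called for 0 genes by edgeR, the only tool run for it, where the smallest adjusted p was 0.0740 and 531 genes had an unadjusted p under 0.05. Leaving the term for the replicate pair out of the fit gave 64 genes higher and 84 lower, all of them among the 150 and 180. Genes that rose were shorter than those that fell, with median exonic lengths of 4101 and 6459 bases beside 5039 for all tested genes, and no test was made of this.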

How the data were processed

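RNA of MDA-MB-231 cells was sequenced as 3′ libraries in 20 samples, 4 in each of 5 groups. Per the submitters' processing notes, the authors used STAR and Salmon on GRCh38; versions, annotation, strand setting and use of molecular identifiers are not stated there. The deposited values are estimated counts per gene, which need not be whole, and were rounded to whole numbers here. The members and gene lists were chosen with earlier results of these data known.

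Genes were filtered with filterByExpr (minimum count 10, minimum total 15), which left 12149 of 36601, and scaled by TMM. The test was edgeR 4.0.16's quasi-likelihood test (robust) in R 4.3.3 on all 20 samples, with a mean for each group and a term for replicates 1 and 2 against 3 and 4, and Benjamini-Hochberg adjusted p under 0.05. Including all groups gives one estimate of the spread. The standard error is the size of the log2 fold change divided by the square root of the test's F. Genes named by rule were the 12 largest rises and 12 largest falls at a mean of at least 10 CPM among called genes, 4 each way against 46 and 54 °C, 3 members per list by smallest p, and fixed genes of interest. Other genes given with values were chosen after their values were seen, also where this is not said beside them. Among these are MTRNR2L12, HIST1H4C, GDF15, FLNA, AMOTL2, TLN1, GADD45A, IL1A, IL1B, IL6, NFKBIA, HNRNPU and HNRNPUL1. Positions and small RNAs came from GENCODE release 29 (GRCh38), which placed 34616 genes and 12113 of those tested; promoters came from RefSeq (GRCh38.p14). DESeq2 1.42.0, limma 3.58.1 (voom), other scalings, filters and designs and leaving out each library were alternatives. The script was tested on simulated data. Totals of 2401180 to 7710977 counts per library limit the precision of genes at a few CPM. Replicates of a group correlated at 0.903 to 0.927 across genes and differed by more than sampling noise (chi-square per gene 7.66 to 14.01), so none were merged.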

Additional observations from a re-analysis of the deposited data

Results flagged for a closer look

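In 11 of 230 groups of 4 values looked at, 1 sample stood apart from the other 3 by Dixon's test (gap over range above the 95% critical value), which chance gives in about 1 group in 20. With the laser at 50 °C these were HIST1H2AG in replicate 4 (40.4 CPM), DDIT4 in replicate 2 (114 CPM), HMOX1 in replicate 2 (6.21 CPM), HNRNPD in replicate 4 (294 CPM), HLA-E in replicate 1 (167 CPM) and AGO3 in replicate 1 (3.68 CPM). IRF1 in replicate 1 (94.4 CPM), IL1A in replicate 2 (43.9 CPM) and IL1B in replicate 4 (24.7 CPM) of that group stood apart as well. With nanoparticles alone they were CD274 in replicate 1 (14.6 CPM) and MT-ND2 in replicate 4 (13997 CPM).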

How the results depend on the processing

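Of 87 called genes named here, 53 kept their call without each library in turn (541 of 696 values), and 28 kept it under all other alternatives (883 of 1044 values); the other values kept their direction and lost the call. For the laser at 50 °C against nanoparticles alone (150 higher, 180 lower), the counts were 64 and 84 with no term for the replicate pair, 93 and 466 with library totals, 73 and 91 within replicates 1 and 2, and 50 and 38 within replicates 3 and 4. DESeq2 gave 213 and 252, and a fit of only the 8 samples gave 213 and 268. With untreated cells as the control they were 212 and 224, which held 99 of the 150 and 111 of the 180. Leaving out 1 library gave 79 to 121 higher and 101 to 152 lower. Against 46 °C (169 and 172) they were 71 and 74 with no pair term and 68 and 725 with library totals; DESeq2 gave 263 lower, and leaving out 1 library gave 105 to 153 higher and 120 to 148 lower. For 54 against 50 °C (33 and 36) they were 7 and 17 with no pair term and 74 and 79 with DESeq2, with 79 higher under library totals, 75 lower under limma-voom, and 9 to 32 higher and 21 to 32 lower without 1 library. The difference between the replicate pairs, 0 calls, gave 7 with no count filter. The cause of these shifts was not tested, except that fewer samples enter the subsets and leave-outs.

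Same-numbered samples of different groups correlated in their deviations from group means at a mean of 0.042 (0.022 to 0.066). Samples of the same replicate pair with other numbers did so at a mean of 0.041 (-0.006 to 0.072), so the number added little to the pair. For samples of different replicate pairs the mean was -0.041 (-0.080 to -0.005). With a replicate block the counts were 152 and 181 against nanoparticles alone (141 and 173 shared), 174 and 179 against 46 °C, and 32 and 36 for 54 against 50 °C.

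Among the genes named here, only ones that were not called changed direction; of all called genes, 1 of the 150 higher ones did so within replicates 3 and 4. Within replicates 3 and 4 this held for MYC (-0.15), CD274 (0.21), HSPA1A (0.29), DNAJB1 (0.11), FOS (-2.42) and KRT19 (-0.09), and within replicates 1 and 2 for HSPA6 (-5.58) and AXL (-0.03). With untreated cells as the control it held for CD274 (0.14), CD47 (0.04), TFF1 (-0.01) and NFKBIA (-0.13), with library totals for HSPH1 (-0.05), FOS (-0.01) and AXL (-0.05), and for FOS also with DESeq2 (-0.06) and with only the 8 samples (-0.54). Without 1 library it held for MYC (range -0.11 to 0.42), CD274 (-0.29 to 0.08), DNAJB1 (-0.12 to 0.01) and FOS (-0.36 to 1.33). Genes at a few CPM have wide intervals at these depths.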
